A study of Homo sapiens with 6 samples.

Results

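The G1 cyclins, their kinases and RB1 were described in HEL cells, a human erythroleukemia cell line. The list holds the D cyclins CCND1, CCND2 and CCND3, the E cyclins CCNE1 and CCNE2, the kinases CDK2, CDK4 and CDK6, the retinoblastoma gene RB1 and the phosphatase gene CDC25A. The 10 genes were chosen by name, and each of them was found by its symbol among the 31999 genes of the deposited table. HEL cells were transduced with a lentiviral small hairpin RNA against TMIGD2 (shTMIGD2, 3 libraries) or with a control hairpin (shCtrl, 3 libraries), and poly(A) RNA was sequenced. TMIGD2 encodes an immune receptor of the cell surface, and the series was made to ask how its knockdown changes gene expression in this line. Each group rests on 1 cell line, and the labels do not say which hairpin against TMIGD2 was used.

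The only measurement used here is the authors' mean level of each gene over all 6 libraries, in log2 CPM (the count of reads of a gene scaled to the total counted in its library). This column combines shCtrl and shTMIGD2 cells, so it gives 1 value per gene, with no value for a single library, no standard deviation and no depth per library. The question of the series, how shTMIGD2 differed from shCtrl, was therefore not analysed here, and no gene is said to rise or fall. Where a gene differed between the groups, its mean level describes neither of them. The order of the genes cannot be set against a spread between libraries, and a level in bulk RNA cannot tell fewer cells from less RNA per cell. The lowest mean level listed was 0.0736 CPM, and no gene is listed at 0.

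In the textbook account of G1, mitogens raise D-type cyclins, which bind CDK4 and CDK6 and start the phosphorylation of the RB1 protein. RB1 then releases E2F transcription factors, which switch on E cyclins, and cyclin E with CDK2 completes the phosphorylation and opens S phase. CDC25A removes inhibitory phosphates from CDK2. The INK4 proteins inhibit CDK4 and CDK6, and the CIP/KIP proteins inhibit CDK2 complexes. Blood lineages differ in the D cyclin they use, and CDK6 is known for its place in hematopoietic cells.

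The labelled cell line was checked against lineage genes. All 8 erythroid and megakaryocytic genes of the list were at 1 CPM or more. So were 69.1% of the protein-coding genes listed, and the count alone therefore says little about lineage. By level, the transcription factor GATA1 was at 250.8 CPM, the transferrin receptor TFRC at 2175 CPM and the platelet integrin ITGA2B at 1490 CPM. Fetal globin HBG1 was at 845.5 CPM, though HBG1 and HBG2 are near-identical and can share reads. None of the 4 genes of other lineages with a value reached 1 CPM. These ranged from ALB, the albumin gene, at 0.0737 CPM to COL1A1, a fibroblast collagen, at 0.574 CPM. The value of ALB lies at the floor, as the lowest mean listed was 0.0736 CPM. CD3E, MS4A1 and KRT5 were looked for by symbol and had no value. TMIGD2 itself had a mean level of 16.9 CPM over both groups, which does not check the knockdown.

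All 10 G1 genes were expressed at 1 CPM or more, and all 10 also at 8 CPM or more. The same holds for 43.8% and 30.2% of all genes listed, and 69.1% and 54.8% of the 16341 protein-coding genes among them, so much of this is shared with other coding genes. The median level of the 10 genes was 7.09 on the log2 CPM scale, beside 3.64 for protein-coding genes. The levels formed a high and a low part. CCND3, CDK6, CDC25A, CDK4, CCND2, RB1 and CDK2 lay between 6.42 and 9.41 on the log2 CPM scale. CCNE2, CCNE1 and CCND1 lay between 3.09 and 4.01, with no G1 gene of the list in between.

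**Figure D1:**
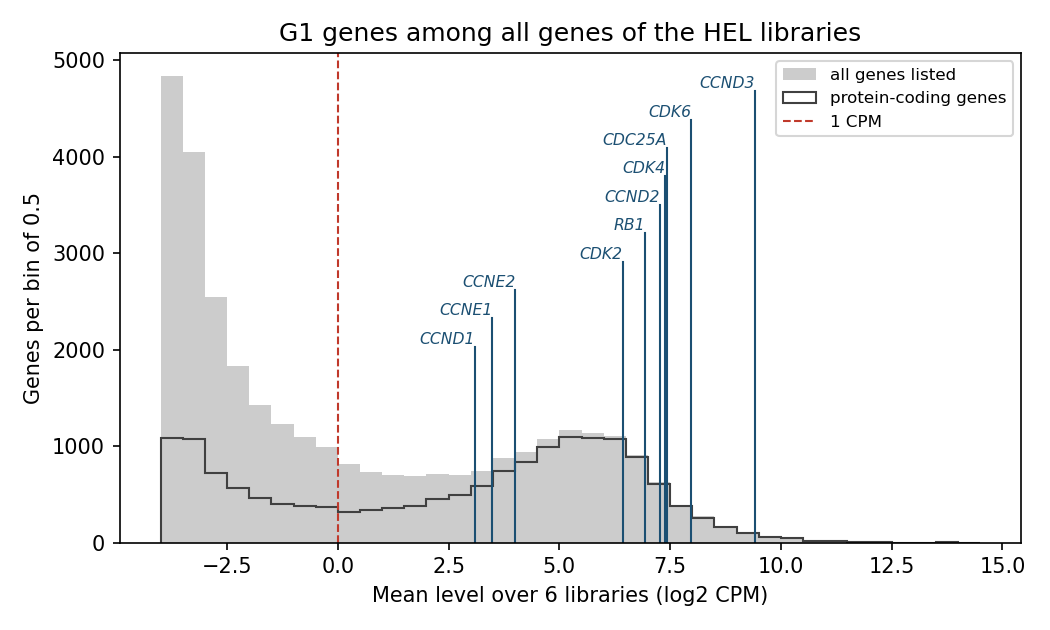
Histogram of the mean log2 CPM over 6 libraries (x axis) against the number of genes per bin (y axis), in grey for all genes listed and in outline for protein-coding genes, with a vertical line for each G1 gene (the height of the lines only separates the names) and a dashed line at 1 CPM. CCND1, CCNE1 and CCNE2 sit between 3.09 and 4.01, and the other genes of the list sit between 6.42 and 9.41.

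The D cyclins, which link growth signals to the cell cycle, were far apart from each other. CCND3 was listed at 681.5 CPM, above 99.5% of all genes, and took place 169 from the top. This rank, like all percentiles of level given here, is by CPM and takes no account of length. CCND2 was at 153.5 CPM, above 95.8% of all genes. CCND1 was at 8.52 CPM, above 70.2% of all genes but only 45.8% of the protein-coding ones. The paper lists CCND1 among the genes whose expression changed significantly after TMIGD2 knockdown. This mean over both groups, and every share or ratio built on it, need not hold in either group. CCND1 was the lowest of the 10 genes and CCND3 the highest.

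Levels of different genes can be compared only per length, since a longer transcript gives more fragments. The length used was that of all annotated exons of a gene joined together. Per kilobase, CCND3 was at 118.3 CPM, CCND2 at 19.2 and CCND1 at 1.79. CCND3 thus made up 84.9% of the summed D cyclin level, CCND2 13.8% and CCND1 1.28%. The ratio of CCND3 to CCND2 was 6.16, and it was 12.7 with the longest transcript and 16.8 with the median coding transcript. The ratio of CCND3 to CCND1 was 66.1, and it was 141.6 and 111.2 with these lengths. These ratios depend on the transcripts that HEL cells use, because CCND3 has 23 annotated transcripts whose joined exons span 5.76 kb while its longest transcript is 2.39 kb. With the longest transcript as the length, the share of CCND3 was 92.1%, with the median coding transcript 93.6%, and without any length 80.8%. CCND1 lies on chromosome 11 from 69641156 to 69654474, CCND2 on chromosome 12 from 4269771 to 4305353 and CCND3 on chromosome 6 from 41934934 to 42050357 (GRCh38).

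CDK4 and CDK6, the kinases that D cyclins activate, changed order with length. CDK6 was listed at 250.9 CPM and CDK4 at 167.4 CPM. The joined exons of CDK6 measure 12.2 kb, most of it in 1 long transcript of 11.7 kb, and those of CDK4 3.09 kb. Per kilobase, CDK4 was at 54.1 CPM and CDK6 at 20.5, a ratio of 2.64 in favour of CDK4. The ratio was 4.17 with the longest transcript, 10.1 with the median coding transcript and 0.667 without any length. The median over the 10 coding transcripts of CDK4 is only 0.771 kb, while its longest transcript is 1.87 kb. The value of 10.1 thus rests on short annotated transcripts, and which transcripts HEL cells use was not measured. CDK4 made up 72.5% of the sum of both, 80.7% with the longest transcript and 91.0% with the median coding transcript. By CPM without length, CDK6 (chromosome 7, 92604921 to 92836573) and CDK4 (chromosome 12, 57747727 to 57756013) stood above 97.8% and 96.2% of all genes listed. The summed level per kilobase was 139.3 CPM for the 3 D cyclins and 74.6 CPM for CDK4 with CDK6.

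CDK2 and its partners, the E cyclins, act later in G1. CDK2 (chromosome 12, 55966781 to 55972789) was at 85.9 CPM and at 22.1 CPM per kilobase. CCNE1 (chromosome 19, 29811991 to 29824312) was at 11.2 CPM, or 4.55 per kilobase. CCNE2 (chromosome 8, 94879770 to 94896678) was at 16.1 CPM, or 3.65 per kilobase. The E cyclins lay close together. The ratio of CCNE1 to CCNE2 was 1.25 per kilobase of joined exons but 0.857 per kilobase of the median coding transcript, so their order was not settled. The ratio of CDK2 to CCNE1 was 4.86 per kilobase of joined exons and 8.44 per kilobase of the median coding transcript, and the summed E cyclins reached 8.20 CPM per kilobase, beside 139.3 for the D cyclins.

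RB1, which encodes the main substrate of these kinases, was at 121.6 CPM and at 18.9 CPM per kilobase. It lies on chromosome 13 from 48303744 to 48599436. Its relatives RBL1 and RBL2, which encode p107 and p130, were at 5.94 and 3.93 CPM per kilobase, so RB1 made up 65.7% of the sum of the 3 pocket protein genes. CDC25A (chromosome 3, 48157146 to 48188417) was at 172.1 CPM and at 41.5 CPM per kilobase. It stood above its relatives CDC25B, at 15.9 CPM per kilobase, and CDC25C, at 2.88.

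Per kilobase of joined exons, the order from the top was CCND3, CDK4, CDC25A, CDK2, CDK6, CCND2, RB1, CCNE1, CCNE2 and CCND1. CDK2, CDK6, CCND2 and RB1 lay between 18.9 and 22.1 CPM per kilobase, and their order changed with the length used. CCND3 was the highest, CDC25A the third, and CCNE1, CCNE2 and CCND1 the lowest 3, under each of the 4 ways of treating length. One of these ways, CPM without length, does not make levels of different genes comparable.

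**Figure D2:**
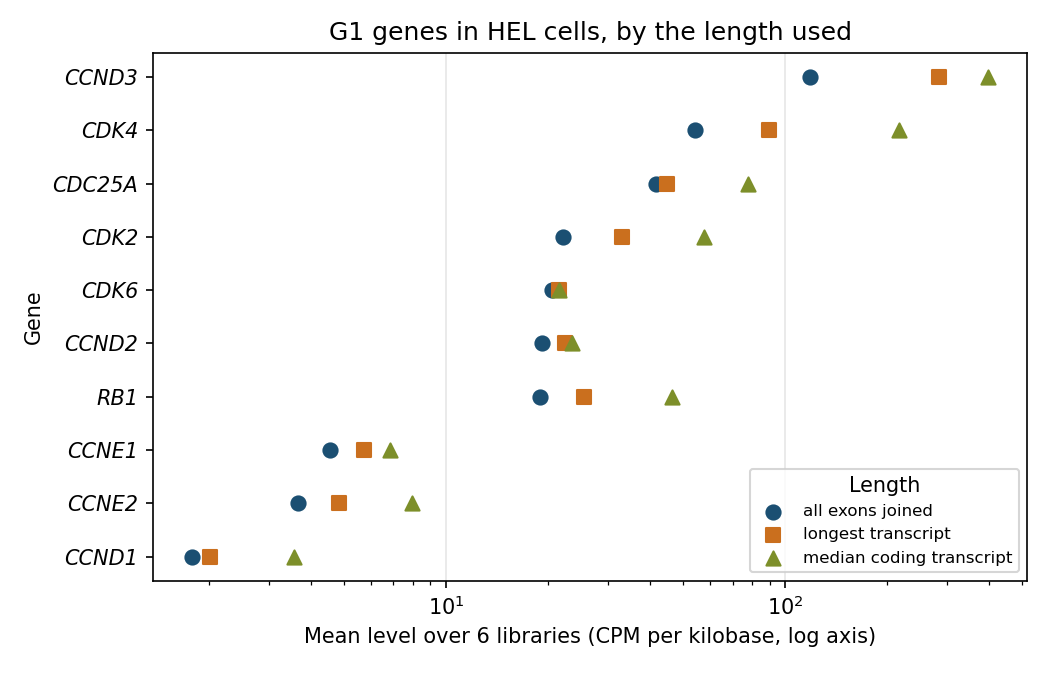
Mean level over 6 libraries in CPM per kilobase (x axis, log scale) for each G1 gene (y axis), with 1 point for each length used: all annotated exons joined (circles), the longest transcript (squares) and the median coding transcript (triangles). CCND3 sits at 118.3 or above and CCND1 at 3.56 or below whichever length is used, while the points of CDK2, CDK6, CCND2 and RB1 interleave.

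Annotated neighbours share exon sequence with some of the G1 genes, mostly on the opposite strand. The libraries were made with a directional kit, but whether strand was used in counting is not given in the sources used here. TSPAN31 covers 44.2% of the CDK4 exon bases and was at 20.1 CPM. INTS8 covers 37.0% of the CCNE2 exon bases and was at 61.3 CPM, above CCNE2 itself. LTO1 covers 10.4% of the CCND1 exon bases and was at 13.4 CPM, also above CCND1. CCND2-AS1 covers 2.03% of the CCND2 exon bases at 0.295 CPM, and PMEL 2.29% of those of CDK2 at 1.85 CPM. ENSG00000258554, a long noncoding RNA, covers 14.5% of the CDK2 exon bases. ENSG00000285901, annotated as protein coding, lies on the same strand as CCND2 and covers 12.5% of its exon bases, so that strand cannot separate them. ENSG00000258554 and ENSG00000285901 had no value under these names. How many reads moved between these genes was not tested.

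The other genes of the pathway were described from lists written from general knowledge. Counts at 1 CPM in these lists stand beside 43.8% of all genes listed and 69.1% of the protein-coding ones. Of the CDK inhibitors, 4 of the 6 with a value reached 1 CPM, and their median was 5.08 CPM per kilobase, beside 19.9 for the 10 G1 genes. With the median coding transcript as the length, these medians were 21.2 and 34.9. CDKN2C, which encodes the INK4 protein p18, was the highest at 62.3 CPM per kilobase, followed by CDKN2D, which encodes p19, at 37.5. CDKN2A, the gene of p16 and ARF, was at 0.168 CPM, above 34.7% of all genes listed, and CDKN2B was looked for by symbol and had no value. The 3 INK4 genes with a value summed to 99.8 CPM per kilobase, nearly all of it CDKN2C and CDKN2D. Beside the sum of their targets CDK4 and CDK6 this was higher with joined exons, 99.8 against 74.6. It was lower with the longest transcript, 104.4 against 111.3, and with the median coding transcript, 135.7 against 238.7. The order depended on the length used and was not settled. Most of the 238.7 is CDK4, at 217.1, whose median coding transcript is only 0.771 kb. The INK4 sum was also lower without length, a setting that does not make genes comparable. The CIP/KIP genes summed to 10.4 CPM per kilobase, or 42.7 with the median coding transcript. Per kilobase of joined exons CDKN1B (p27) was at 6.69, CDKN1A (p21) at 3.48 and CDKN1C (p57) at 0.258. The paper also lists CDKN1A among the significantly changed genes, so its mean need not be its level in either group.

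All 12 E2F and pocket protein genes reached 1 CPM, beside 69.1% of the protein-coding genes listed. Their median was 11.6 CPM per kilobase. E2F1, an activator held by RB1, was at 30.8 CPM per kilobase, and TFDP1, the dimer partner of the E2F proteins, at 55.9. E2F5, a repressor, was at 1.94, or 8.82 with the median coding transcript. All 7 genes for the CDK-activating kinase and the phosphatases and kinases that set CDK phosphorylation reached 1 CPM as well, with a median of 7.49 CPM per kilobase. CDK7, which phosphorylates the activation loop of CDK2 and CDK4, was at 5.09 CPM per kilobase, with CCNH at 7.49 and MNAT1 at 3.61, and WEE1, which opposes CDC25A, was at 9.07.

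Genes for the turnover and folding of G1 proteins all reached 1 CPM, 8 of 8, beside 69.1% of the protein-coding genes listed. SKP2, which marks p27 for degradation, was at 2.98 CPM per kilobase of joined exons, and its cofactor CKS1B at 57.2. With the median coding transcript as the length, SKP2 was at 18.1 and CKS1B at 163.3. FBXW7, which marks cyclin E, was at 1.80 per kilobase of joined exons, and AMBRA1, which marks D cyclins, was at 4.91. With the median coding transcript FBXW7 was at 10.0 and AMBRA1 at 7.66, so their order was not settled. CDC37, the chaperone partner that loads CDK4 onto HSP90, was at 141.6 CPM per kilobase. Of the cyclins of S and G2/M with CDK1, 4 of 5 reached 1 CPM. CCNA2, CCNB1, CCNB2 and CDK1 lay between 31.9 and 57.4 CPM per kilobase, above both E cyclins, and CCNA1, a cyclin of the germ line, was at 0.216 CPM. Of the other cyclins and kinases, CCNG1 was at 66.6 CPM per kilobase and CDK3 at 0.231 CPM. CDK5, CCNC and CCNG2 were at 8.34, 13.7 and 0.580 CPM per kilobase.

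**Figure D3:**
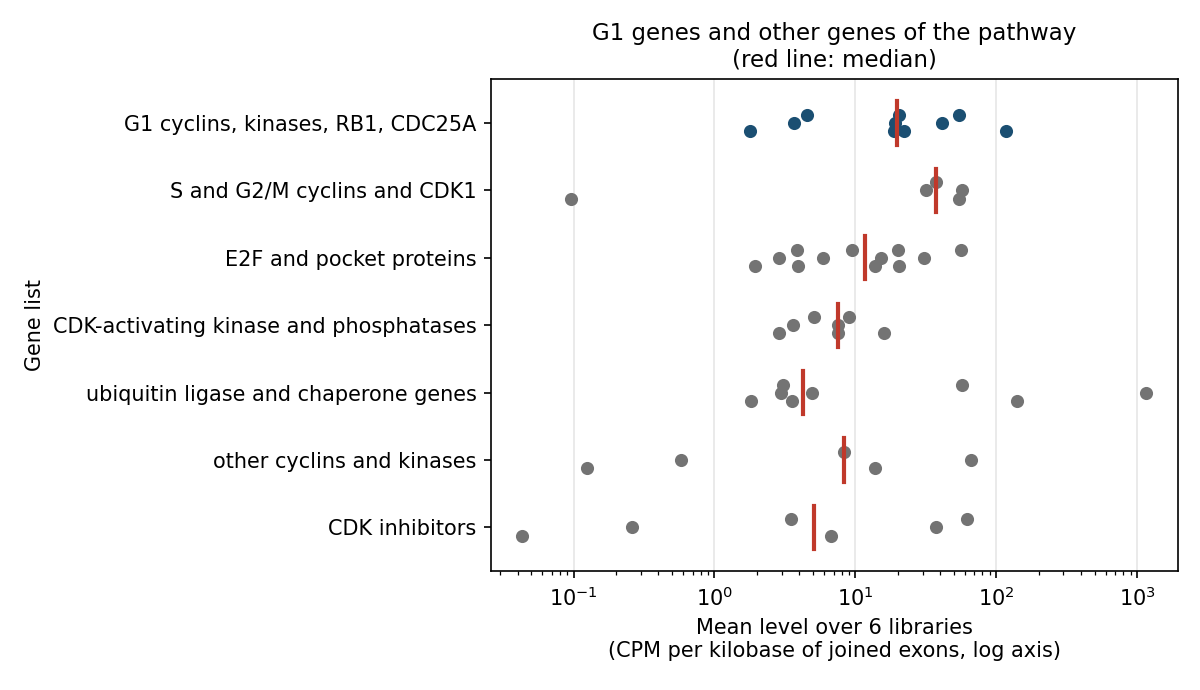
Mean level over 6 libraries in CPM per kilobase of joined exons (x axis, log scale), with 1 point per gene and 1 row per gene list (y axis), and a red line at the median of the list. The G1 genes span 1.79 to 118.3 with a median of 19.9, and the CDK inhibitors have a median of 5.08.

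Promoter sequences of 300 bases, from 250 before to 50 after a start site, were taken from RefSeq (GRCh38.p14) for 6 of the 10 genes. CCND1, CCND2, CCNE2 and CDK2 had no entry. Sequence features were described without a link to the levels above. The E2F motifs TTTCGCGC and TTTGGCGC both end in GCGC, which reads the same on the opposite strand. Matches on opposite strands can therefore overlap. Both E2F motifs were looked for on both strands, as were the other motifs below, and occur in 0.515% and 0.652% of 35116 promoters. Other forms of the E2F motif were not looked for. Of the 6 genes with an entry, CDC25A held the only match to either E2F motif, TTTGGCGC, which begins 44 bases before the start site. Its promoter, chr3:48188368-48188667 on the minus strand, is shown for that match, which is in capitals.

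CDC25A: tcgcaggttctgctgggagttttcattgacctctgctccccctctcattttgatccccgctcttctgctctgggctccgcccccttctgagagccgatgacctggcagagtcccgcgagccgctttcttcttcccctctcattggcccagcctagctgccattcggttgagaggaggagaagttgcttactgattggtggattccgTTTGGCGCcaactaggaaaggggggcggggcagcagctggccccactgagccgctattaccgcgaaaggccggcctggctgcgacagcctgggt

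The match is a run of letters and not a measured binding site. The CREB motif TGACGTCA, present in 1.85% of all promoters, was in none of the 9 promoter entries of the 6 genes. At so low a rate, 9 entries are too few to read a lack of matches. Shorter forms of the CREB motif were not looked for, and CCND1, CCND2, CCNE2 and CDK2 had no entry to search. The GC box GGGCGG was in 6 of these 9 entries and in 45.0% of all promoters. The promoter of CCNE1 was 81.0% G and C, above 98.2% of all promoters, while the RB1 entry, which belongs to a start site inside the gene, was 38.3% G and C.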

How the data were processed

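Total RNA of shCtrl and shTMIGD2 HEL cells was made into poly(A) directional libraries, and samples were grouped by their titles. Per the labels and the paper's methods, the authors aligned reads to hg38 with STAR 2.6.1b and counted fragments per RefSeq gene with HTSeq 0.6.1. The submitters' processing notes also name edgeR, and the headers of the authors' deposited table are those of its quasi-likelihood output. The log2 CPM column is the authors' mean over all 6 libraries, whose linear values sum to 1002514 CPM over 31999 genes. The prior count behind it is not given in the sources used here. The paper's methods name DESeq2 for the authors' differential expression analysis, on genes averaging at least 1 read in a group, and whether that filter was applied to this table is not stated. The other columns hold the authors' own comparison (log2 fold change, F statistic, p-value and adjusted p-value) and were not used. With no values per library, the planned edgeR test of counts was not run. In 24 rows a spreadsheet date stands in place of a symbol, and none of these is a gene named here.

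Linear CPM, ranks and CPM per kilobase were computed with Python 3.11.15 and pandas 2.3.3. Coordinates and exon lengths come from GENCODE 44 (GRCh38), in which all 10 genes matched by symbol. The authors counted on another annotation of the same build, so lengths differ from those that were counted. The functions were tested on simulated data. The 10 genes, the pathway lists and the lineage genes were chosen with earlier results of these data known. The text names all 10 genes, genes of these lists and TMIGD2. No value has a standard deviation or a test.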

Additional observations from a re-analysis of the deposited data

How the results depend on the processing

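All 10 genes reached 1 CPM, and 10 also reached 8 CPM. The median percentile of the 10 genes among all genes listed was 95.0, and it was 88.7 among genes at 1 CPM or more and 90.6 among protein-coding genes, by the smaller set of genes ranked. These percentiles are by CPM without length. The median level was 19.9 CPM per kilobase of joined exons, 24.0 with the longest transcript and 34.9 with the median coding transcript, which are shorter lengths. Of 27 log2 ratios between pairs of these genes under other lengths or with no length, 23 kept their sign and 4 changed it. The setting with no length does not make levels of different genes comparable. The log2 ratio of CCNE1 over CCNE2, 0.32, became -0.22 with the median coding transcript and -0.52 with no length. With no length, the log2 ratio of CDK4 over CDK6 was -0.58 and that of CDK2 over CDK6 was -1.55, against 1.40 and 0.11. In a comparison added after seeing the data, the log2 ratio of the summed INK4 genes over CDK4 and CDK6 was 0.42, but -0.091 with the longest transcript, -0.82 with the median coding transcript and -0.77 with no length, while that of the summed D cyclins stayed between 0.82 and 1.47. The spread between libraries is unknown, so no shift could be judged against it. Some alternatives need counts per library and were not run: DESeq2 with its size factors, no filter on low counts, and each library left out in turn. No paired analysis was possible because only means over all libraries were used.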
